A study of Homo sapiens with 6 samples.

Results

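Breast cancer stem cells and mammary lineages are commonly told apart by a small panel of genes, and 10 of them were followed here in MDA-MB-231 cells: the surface proteins CD44, CD24 and EPCAM, the aldehyde dehydrogenases ALDH1A1 and ALDH1A3, the protein C receptor PROCR, and the transcriptional regulators SOX9, SOX4, KLF4 and ID1. The genes were taken by their symbol from a table of 74852 genes. All 10 were listed in it, and 8 of them reached the mean of 10 normalized counts that was required for a test. MDA-MB-231 is a human triple negative breast cancer (TNBC) cell line, and the study asked whether the kinase NEK2 modulates its transcriptome. The 6 libraries were polyA-enriched RNA of cells transfected with a pool of control siRNAs (si-CTRL, n = 3) or with a pool of siRNAs that target NEK2 (si-NEK2, n = 3). Both groups received 2 rounds of transfection and, by the sample records, were collected 24 h after the second, whereas the study's methods give another interval. All libraries therefore came from 1 cell line, with a transient and partial loss of NEK2. The methods describe the libraries as triplicates without saying whether they were independent cultures, so the p-values measure the spread between these libraries, which may be technical. The records of the 3 si-CTRL libraries refer to further sample records, those of the si-NEK2 libraries do not, and a batch that follows the groups cannot be told apart from the silencing in any fold change.

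CD44 is the receptor for the matrix polysaccharide hyaluronan, and breast cancer cells with high CD44 and low CD24 on their surface are known for a high capacity to start tumours in transplants. ALDH1A1 and ALDH1A3 oxidise retinaldehyde to retinoic acid, and their activity is what the aldehyde dehydrogenase assay of stem cells detects. PROCR, the endothelial protein C receptor, marks a multipotent mammary stem cell in mouse. SOX9, SOX4, KLF4 and ID1 are nuclear proteins: SOX9 is linked to luminal progenitors, SOX4 to the epithelial-mesenchymal transition, KLF4 is a pluripotency factor, and ID1 binds E proteins and keeps them from DNA. MDA-MB-231 cells belong to the mesenchymal kind of TNBC, in which CD44 is abundant and EPCAM is low.

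The libraries held between 52625492 and 87454509 reads assigned to genes, and 1 read stood for 0.8183 to 1.25 normalized counts. A value of 0 means that no read was counted, which leaves room for an expected count of up to 3 reads in a library taken alone. NEK2, the targeted gene, was at 3702, 3323 and 3290 normalized counts in si-CTRL replicates 1, 2 and 3 and at 284, 362 and 388 in si-NEK2 replicates 1, 2 and 3, so that 10% of its transcript remained. The labelled cell line carried its defining transcripts, since VIM reached 157264 ± 14370 normalized counts (SD, n = 3) in control cells while ESR1, PGR and CDH1 had means of 8.22, 0 and 1.61. ERBB2, the HER2 receptor, had 2822 ± 544 normalized counts in the same libraries, and was thus not absent. Of the markers of blood, endothelial and other cell types, 8 could be read on rows of their own. Their normalized counts summed to between 61.8 and 86.2 in si-CTRL libraries and to between 41.6 and 61.4 in si-NEK2 libraries, and between 1 and 3 of the 8 were at 0 in a library. T-cell CD3E and erythroid HBB had means of 0 in si-CTRL cells and of 0.55 in si-NEK2 cells.

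The markers moved in both directions after NEK2 silencing. PROCR, ALDH1A3 and CD44 fell to 45.6%, 54.8% and 58.2% of their si-CTRL means, and ID1 rose to 164%. These 4 of the 8 tested genes passed the thresholds of the study, a p-value no higher than 0.05 with at least a 1.5-fold difference. CD24 and KLF4 were lower and SOX4 was higher with an adjusted p under 0.05, but each by less than 1.5-fold. SOX9 did not pass the test, EPCAM was too low to be tested and ALDH1A1 was listed at 0. Both groups are bulk RNA, so that fewer cells of a type and less RNA per cell cannot be told apart in any of these values.

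The thresholds were passed by many genes in these libraries. The counts of markers, and those of the related lists below, are read against that background. Of 18717 genes tested with limma on log2(normalized count + 1), 22.5% passed both thresholds, 8.23% as higher and 14.3% as lower after silencing. With every library scaled to the same total, these shares were 5.03% and 18.6%. Of the 8 markers, 1 passed as higher and 3 as lower. An adjusted p (Benjamini-Hochberg, over all genes tested) of at most 0.05 was reached by 43.1% of all genes and by 7 of the 8 markers. In 55% of all genes the 3 libraries of a group lay apart from the 3 of the other, as they did in 6 of the 8 markers. The median log2 fold change was -0.54 over the 8 markers and 0.01 over all genes, with 5 markers below 0 and 3 above.

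**Figure D1:**
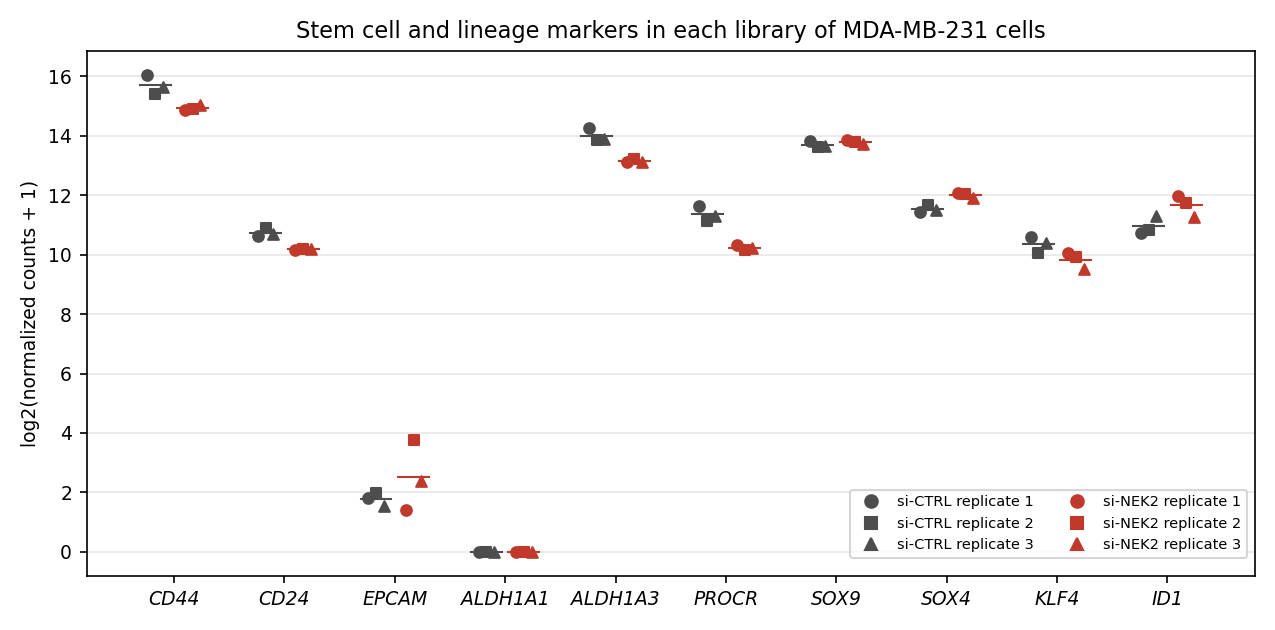
Normalized counts of the 10 markers in each library, on a log2(normalized count + 1) axis, with si-CTRL in grey, si-NEK2 in red, a symbol for each replicate and a line at the mean of the log2 values. The si-NEK2 libraries lie below all si-CTRL libraries for CD44, CD24, ALDH1A3, PROCR and KLF4, and above them for SOX4. For SOX9 and ID1 the groups overlap in part. EPCAM lies under 4 on this axis and ALDH1A1 at 0.

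The promoters of the 4 markers that passed both thresholds are shown to give the sequence at which their transcription starts. They come from RefSeq on GRCh38.p14, in windows from 250 bases before to 50 bases after the annotated start, printed 5′ to 3′ on the strand of the gene. Capitals mark 3 elements, each searched on both strands. A GC box was read as GGGCGG. The TATA element was read as TATAAA, and the CCAAT element by the letters of its name.
CD44 (chr11:35138921-35139220, plus strand): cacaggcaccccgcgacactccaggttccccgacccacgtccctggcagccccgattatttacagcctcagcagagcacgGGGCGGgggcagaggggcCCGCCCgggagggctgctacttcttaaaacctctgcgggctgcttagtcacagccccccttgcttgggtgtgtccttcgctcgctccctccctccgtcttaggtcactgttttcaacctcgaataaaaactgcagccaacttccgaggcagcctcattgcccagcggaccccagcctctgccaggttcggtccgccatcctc
ALDH1A3 (chr15:100879581-100879880, plus strand): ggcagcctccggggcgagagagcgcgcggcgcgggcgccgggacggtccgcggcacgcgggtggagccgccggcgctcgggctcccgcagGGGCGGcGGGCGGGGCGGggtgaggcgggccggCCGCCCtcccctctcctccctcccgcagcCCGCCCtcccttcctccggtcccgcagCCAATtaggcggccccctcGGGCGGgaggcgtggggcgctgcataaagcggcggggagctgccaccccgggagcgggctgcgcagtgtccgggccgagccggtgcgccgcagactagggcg
PROCR (chr20:35171822-35172121, plus strand): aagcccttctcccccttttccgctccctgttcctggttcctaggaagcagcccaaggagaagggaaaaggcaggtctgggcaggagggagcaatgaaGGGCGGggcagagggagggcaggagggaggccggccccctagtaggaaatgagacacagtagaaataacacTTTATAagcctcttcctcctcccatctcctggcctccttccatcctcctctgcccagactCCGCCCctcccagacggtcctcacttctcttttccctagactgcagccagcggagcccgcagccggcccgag
ID1 (chr20:31605039-31605338, plus strand): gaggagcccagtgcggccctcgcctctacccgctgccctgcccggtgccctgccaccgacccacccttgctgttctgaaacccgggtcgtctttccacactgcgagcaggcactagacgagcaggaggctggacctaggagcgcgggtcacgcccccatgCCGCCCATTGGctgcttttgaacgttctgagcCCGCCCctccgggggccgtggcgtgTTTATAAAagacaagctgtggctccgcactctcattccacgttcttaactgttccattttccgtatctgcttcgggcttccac
The ALDH1A3 window held 6 GC boxes, of which 2 share a base, and 1 CCAAT element. The CD44, PROCR and ID1 windows held 2 GC boxes each. PROCR had 1 TATA element that begins 82 bases before the start. ID1 had 2 TATA elements that overlap, beginning 33 and 31 bases before the start, and 1 CCAAT element at 84 bases before it. Among 35116 promoter windows of the same length, 45% held a GC box, 11.5% the TATA element and 34.6% the CCAAT element. The AP-1 letters TGANTCA were found in 7.71% of all windows and in none of the 10 windows of the 8 markers that had one. These matches are descriptions of the windows, and no binding was measured.

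CD44 was the most abundant surface marker. Its normalized counts (GSHG0004753, chromosome 11 from 35160417 to 35253942, hg19) were 68397, 43246 and 50680 in si-CTRL replicates 1, 2 and 3, and 29767, 30808 and 33817 in si-NEK2 replicates 1, 2 and 3. All si-NEK2 libraries lay below all si-CTRL libraries, and si-CTRL replicate 1 stood above the other controls. The mean was 54108 ± 12921 in si-CTRL and 31464 ± 2103 in si-NEK2 cells (SD, n = 3 each), a log2 fold change of -0.76 (standard error 0.15, 95% interval -1.09 to -0.42, adjusted p = 0.00332 by limma). Without si-CTRL replicate 1 the log2 fold change was -0.58, just short of 1.5-fold, with an adjusted p of 0.000209 by limma. The direction was the same in every one of the 17 alternative settings, with log2 fold changes between -0.93 and -0.58.

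CD24, a small glycosylated surface protein that is anchored by a lipid and is abundant on luminal cells, was also lower. The table places the only row with this symbol (GSHG0032516) on chromosome Y from 21152524 to 21550243 (hg19), whereas the GENCODE annotation of GRCh38 has the coding gene on chromosome 6 from 106969831 to 106975627 and a processed pseudogene, CD24P4, on chromosome Y. No row carries the symbol CD24P4, so that reads from the gene and from its copies cannot be told apart and the level is uncertain. With that limit, the row had 1566, 1901 and 1672 normalized counts in si-CTRL replicates 1, 2 and 3, and 1145, 1176 and 1166 in si-NEK2 replicates 1, 2 and 3. The si-NEK2 libraries were close to each other and below every control. The mean fell from 1713 ± 171 to 1162 ± 15.8 (SD, n = 3 each), with a log2 fold change of -0.55 (standard error 0.09, 95% interval -0.75 to -0.36, adjusted p = 0.00115 by limma). This is less than 1.5-fold, although the threshold was passed with upper quartile scaling (-0.62), with equal total scaling (-0.68) and without si-CTRL replicate 1 (-0.62).

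The CD44-high, CD24-low pattern is read from both genes at once, so that their ratio was compared within each library. The log2 ratio of CD44 to CD24 was 5.45, 4.51 and 4.92 in si-CTRL replicates 1, 2 and 3 and 4.70, 4.71 and 4.86 in si-NEK2 replicates 1, 2 and 3. The control libraries spanned all si-NEK2 libraries. The mean was 4.96 ± 0.47 (SD, n = 3) in si-CTRL and 4.76 ± 0.09 (SD, n = 3) in si-NEK2 cells, and the difference of -0.20 was smaller than the spread between control libraries (exact permutation test, two-sided, p = 0.6, where 3 against 3 cannot go below 0.1). It was 0.04 without si-CTRL replicate 1 (exact permutation p = 1), so that its sign rests on that library. There were between 22.7 and 43.7 CD44 reads for each read on the CD24 row over the 6 libraries. The ratio compares transcripts in bulk and does not give the share of cells with either surface phenotype.

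EPCAM, an adhesion molecule of epithelial cells that is low in mesenchymal lines, had almost no reads (GSHG0016450, chromosome 2 from 47596287 to 47614165, hg19). Its reads numbered 2, 3 and 2 in si-CTRL replicates 1, 2 and 3, against 2, 14 and 4 in si-NEK2 replicates 1, 2 and 3. Only si-NEK2 replicate 2 exceeded 4 reads, and the groups overlapped. With a mean below 10 normalized counts EPCAM was not tested, and a difference was not detectable at this depth.

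Of the aldehyde dehydrogenases in the panel, ALDH1A3 carried all the reads. ALDH1A1 (GSHG0030882, chromosome 9 from 75515578 to 75695358, hg19) was listed at 0 throughout. In a library taken alone, this leaves room for an expected count of up to 3 reads. ALDH1A3 (GSHG0010209, chromosome 15 from 101419897 to 101456829, hg19) had 19464, 14994 and 15323 normalized counts in si-CTRL replicates 1, 2 and 3, and 8864, 9464 and 8939 in si-NEK2 replicates 1, 2 and 3. Each si-NEK2 library was below every control by a wide margin. The mean fell from 16593 ± 2491 to 9089 ± 327 (SD, n = 3 each), with a log2 fold change of -0.86 (standard error 0.10, 95% interval -1.09 to -0.63, adjusted p = 0.000246 by limma). It passed both thresholds in each of the 17 alternative settings, with values between -0.998 and -0.74.

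The ALDH family and the retinoic acid pathway were read beside it. Of the other ALDH genes, 13 were tested, and 4 passed as higher and 1 as lower, with a median log2 fold change of 0.27. ALDH3B1, which acts on aldehydes of lipids, was higher (1.11, from 499 to 1069 normalized counts), as were the mitochondrial enzymes ALDH4A1 (0.61) and ALDH7A1 (0.81, from 5273 to 9239). ALDH1L1, a folate enzyme, was lower (-1.90, from 47.9 to 13.1). The adjusted p of these 4 genes was at most 0.00429 (limma). The numbers were 2 higher and 2 lower with upper quartile scaling, 2 higher and 3 lower with equal total scaling, 2 higher and 1 lower without si-CTRL replicate 1, and 3 in each direction without si-CTRL replicate 3. ALDH2 and ALDH3A1 had means under 10 over the 6 libraries and were not tested. Of the retinoic acid genes, 11 were tested and 7 passed as higher and 0 as lower, with a median of 0.64, while 4 passed as higher with equal total scaling and 5 with upper quartile scaling.

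The retinoic acid genes that rose most included enzymes on both sides of ALDH1A3 in the pathway. DHRS3, which reduces retinaldehyde back to retinol, had 344, 428 and 337 normalized counts in si-CTRL and 845, 772 and 830 in si-NEK2 replicates 1, 2 and 3 (log2 fold change 1.15, adjusted p = 0.00011 by limma). CYP26B1, which degrades retinoic acid, went from 164 ± 16.7 to 311 ± 9.97 (log2 fold change 0.92), and CRABP2, a carrier of retinoic acid to the nucleus, from 110 ± 7.03 to 197 ± 25.5 (0.83). RARB, a retinoic acid receptor, was at 655, 647 and 610 in si-CTRL and at 1106, 1103 and 1162 in si-NEK2 replicates 1, 2 and 3 (0.82, adjusted p = 9.39e-05 by limma). In these 4 genes no si-NEK2 library fell among the controls, but the groups also lay apart in 55% of all genes tested. The carrier CRABP1 was listed at 0 in every library. FABP5, a carrier with near-identical pseudogene copies, was listed at 0 as well, but its level is uncertain, since reads shared with such copies may not be assigned to it.

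PROCR showed the largest relative fall of the panel (GSHG0018704, chromosome 20 from 33759740 to 33765164, hg19). Its normalized counts were 3168, 2255 and 2514 in si-CTRL replicates 1, 2 and 3, and 1272, 1149 and 1196 in si-NEK2 replicates 1, 2 and 3. The groups were well apart, with si-CTRL replicate 1 again the highest. The mean fell from 2646 ± 471 to 1205 ± 62.1 (SD, n = 3 each), a log2 fold change of -1.12 (standard error 0.12, 95% interval -1.39 to -0.85, adjusted p = 0.000171 by limma), and it was the only marker with a fold change of at least 2. Its value lay between -1.25 and -0.98 over the 17 alternative settings. PROCR lies inside a row shared by EDEM2 and MMP24-AS1, which had 125% of the mean of PROCR and a log2 fold change of -0.05 (adjusted p = 0.63 by limma). Whether strand was used in counting is not given in the sources used here, so that reads of overlapping genes may have been split between these rows.

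The partners of PROCR in the protein C and thrombin pathway moved both ways. Of 8 tested, 2 passed as higher and 3 as lower, with a median log2 fold change of -0.30, and with equal total scaling 1 and 4. The 3 that passed as lower were F3, tissue factor that starts coagulation, and the thrombin receptor genes F2R and F2RL2. F3 was at 7661, 5839 and 6675 normalized counts in si-CTRL and at 1442, 1466 and 1595 in si-NEK2 replicates 1, 2 and 3 (log2 fold change -2.16 ± 0.10, SE, adjusted p = 4.31e-06 by limma). F2R fell from 11526 ± 1033 to 5522 ± 104 (-1.06), and F2RL2 from 1200 ± 215 to 319 ± 16.8 (-1.89). PROC, the ligand of PROCR, rose from 3.81 to 22.9 normalized counts (2.31), at a level of few reads. Its si-CTRL mean was below 10, so PROC entered the tests only through its si-NEK2 values, and its call rests on those same values. The other gene that passed as higher was F2RL1, at a higher level, from 5011 ± 646 to 8158 ± 284 (0.71, adjusted p = 0.000452 by limma). Thrombomodulin, THBD, had means of 2.72 and 0.628 and was not tested.

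The partners of CD44 were read in the same way. Of 16 tested genes that make, degrade or bind hyaluronan or that anchor or cleave CD44, 2 passed as higher and 3 as lower, with a median log2 fold change of -0.10 that was 0.06 without si-CTRL replicate 1. HAS2, a hyaluronan synthase, was at 516, 334 and 431 normalized counts in si-CTRL and at 143, 164 and 185 in si-NEK2 replicates 1, 2 and 3 (log2 fold change -1.36 ± 0.17, SE, adjusted p = 0.000385 by limma). TMEM2, a hyaluronidase of the cell surface, fell from 3096 ± 70.5 to 707 ± 83.9 (-2.14), while CEMIP, which also takes part in hyaluronan degradation, rose from 372 ± 24.6 to 795 ± 22 (1.09). RDX, radixin, which links CD44 to actin, fell from 5421 ± 820 to 3136 ± 56.6 (-0.78). MSN and EZR of the same list changed by less than 1.5-fold, MSN lower (-0.49) and EZR higher (0.41). ADAM10 was the other gene that passed as higher, from 6315 ± 149 to 9588 ± 361 (0.60). Thus a synthase and a degrading enzyme were lower and another degrading enzyme was higher. The number passing as higher was 1 instead of 2 with upper quartile or equal total scaling, without si-CTRL replicate 1 and without si-NEK2 replicate 3. The proteoglycan VCAN and the synthase HAS1 were listed at 0.

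**Figure D2:**
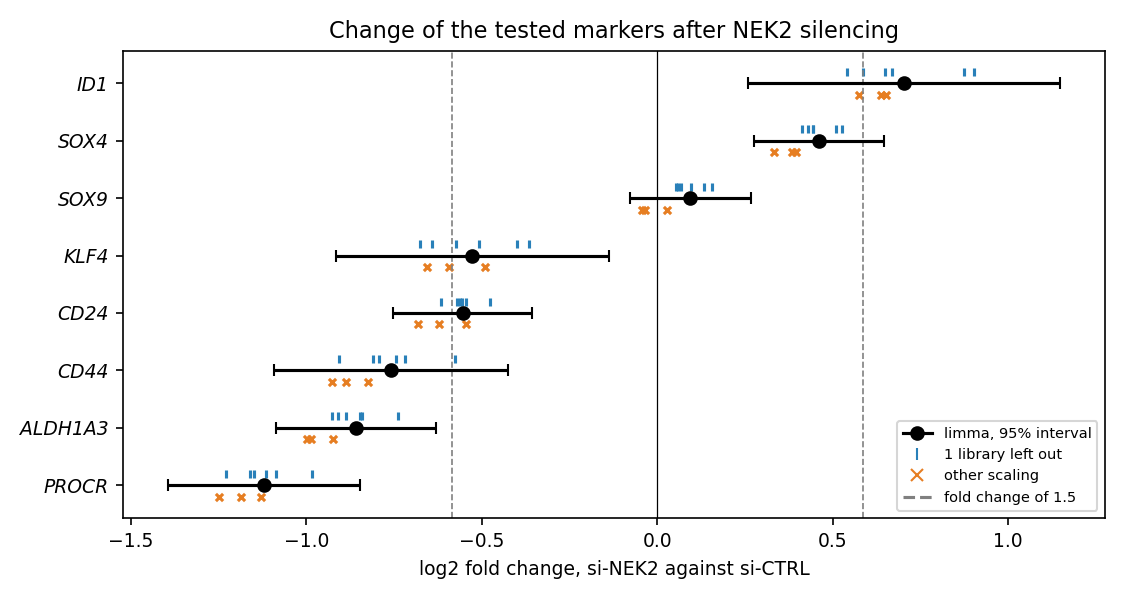
Log2 fold change of the 8 tested markers, si-NEK2 against si-CTRL, with the limma estimate and its 95% interval in black, the value with each library left out in blue, and the value under upper quartile, equal total and quantile scaling in orange. The dashed lines stand at a fold change of 1.5. All values of PROCR and ALDH1A3 lie left of the left line, and those of CD44, KLF4 and CD24 lie on both sides of it. Those of ID1 lie on both sides of the right line, and those of SOX9 lie on both sides of 0.

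SOX9 was the marker that stayed closest to its control level. Its normalized counts (GSHG0012778, chromosome 17 from 70117161 to 70122561, hg19) were 14479, 12621 and 12798 in si-CTRL replicates 1, 2 and 3, and 14982, 14120 and 13454 in si-NEK2 replicates 1, 2 and 3. The groups overlapped, with si-CTRL replicate 1 above 2 of the si-NEK2 libraries. The means were 13299 ± 1026 and 14185 ± 766 (SD, n = 3 each), and the log2 fold change of 0.09 had a 95% interval from -0.08 to 0.27 (standard error 0.08, adjusted p = 0.347 by limma). The sign turned with equal total scaling (-0.03) and with quantile normalization (-0.04), whereas without si-CTRL replicate 1 the log2 fold change was 0.157 with an adjusted p of 0.033 by limma. Under the deposited scaling the interval lies within 1.5-fold in both directions. The antisense gene SOX9-AS1 overlaps it and had 0.955% of its mean level.

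SOX4 was higher in si-NEK2 cells (GSHG0025458, chromosome 6 from 21593972 to 21598847, hg19). The normalized counts were 2798, 3268 and 2916 in si-CTRL replicates 1, 2 and 3, and 4288, 4211 and 3853 in si-NEK2 replicates 1, 2 and 3. All si-NEK2 libraries lay above all controls. The mean went from 2994 ± 244 to 4117 ± 232 (SD, n = 3 each), which is 138% of the control, a log2 fold change of 0.46 (standard error 0.08, 95% interval 0.28 to 0.65, adjusted p = 0.00205 by limma). It stayed under 1.5-fold in all 17 alternative settings, where it lay between 0.33 and 0.53. Of the other SOX genes, 6 were tested, and 0 passed as higher and 2 as lower. Without si-CTRL replicate 1, 1 passed as higher. Of the 2 that passed as lower, SOX12, of the same subgroup as SOX4, also had an adjusted p under 0.05, and it fell from 1917 ± 253 to 1055 ± 18.9 normalized counts (log2 fold change -0.85, adjusted p = 0.000254 by limma). The median of the 6 genes was -0.15, but 0.05 with quantile normalization and 0.04 without si-NEK2 replicate 3, and 1 gene passed as lower without si-CTRL replicate 3, si-NEK2 replicate 1 or si-NEK2 replicate 2. SOX2, a pluripotency factor, and SOX10, a marker of some TNBC, were listed at 0.

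KLF4 was lower but varied within both groups (GSHG0031046, chromosome 9 from 110247135 to 110252001, hg19). Its normalized counts were 1564, 1067 and 1348 in si-CTRL replicates 1, 2 and 3, and 1065, 971 and 727 in si-NEK2 replicates 1, 2 and 3. The groups did not overlap, but si-CTRL replicate 2 and si-NEK2 replicate 1 nearly touched. The mean fell from 1326 ± 249 to 920.6 ± 175 (SD, n = 3 each), with a log2 fold change of -0.53 (standard error 0.17, 95% interval -0.92 to -0.14, adjusted p = 0.0345 by limma). The 1.5-fold threshold was passed with upper quartile scaling (-0.59), with equal total scaling (-0.66), without si-CTRL replicate 2 (-0.68) and without si-NEK2 replicate 1 (-0.64), but the adjusted p by limma exceeded 0.05 without si-CTRL replicate 1 (0.0592), si-CTRL replicate 3 (0.0854), si-NEK2 replicate 2 (0.068) or si-NEK2 replicate 3 (0.107) and with eBayes without a trend (0.0857).

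Of the other KLF genes, which share the zinc fingers of KLF4, 14 were tested, and 1 passed as higher and 4 as lower, with a median of -0.35. KLF11 was at 897, 722 and 733 normalized counts in si-CTRL and at 205, 210 and 227 in si-NEK2 replicates 1, 2 and 3 (log2 fold change -1.86 ± 0.12, SE, adjusted p = 1.22e-05 by limma). KLF15 fell by 2.25 on the log2 scale, from 38.3 ± 4.77 to 7.33 ± 1.48 normalized counts, and KLF13 by 0.84, from 2758 ± 174 to 1534 ± 44.3. The si-NEK2 mean of KLF15 was below 10, so KLF15 entered the tests only through its si-CTRL values, and its call rests on those same values. KLF5, which is expressed in basal mammary cells, rose by 0.69, from 674 ± 186 to 1069 ± 107. The members of the family thus differed in direction, although with equal total scaling 0 passed as higher and 5 as lower, and 2 passed as higher without si-NEK2 replicate 2.

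ID1 was the marker that rose past both thresholds, and it varied widely within both groups (GSHG0018657, chromosome 20 from 30193086 to 30194324, hg19). Its normalized counts were 1690, 1841 and 2518 in si-CTRL replicates 1, 2 and 3, and 4057, 3399 and 2457 in si-NEK2 replicates 1, 2 and 3. The groups overlapped, since si-CTRL replicate 3 was above si-NEK2 replicate 3. The mean rose from 2016.4 ± 441 to 3304 ± 804 (SD, n = 3 each), a log2 fold change of 0.70 (standard error 0.20, 95% interval 0.26 to 1.15, adjusted p = 0.0181 by limma). The change was under 1.5-fold with equal total scaling (0.58, adjusted p = 0.0407 by limma) and without si-NEK2 replicate 1 (0.54, adjusted p = 0.0711 by limma). The adjusted p by limma also exceeded 0.05 when si-CTRL replicate 2 (0.0526) or si-NEK2 replicate 2 (0.0656) was left out, with eBayes without a trend (0.0602) and with the replicate block (0.0529).

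The other ID genes rose with less spread. ID4 was at 92.5, 96.9 and 120 normalized counts in si-CTRL and at 583, 582 and 563 in si-NEK2 replicates 1, 2 and 3 (log2 fold change 2.48 ± 0.13, SE, adjusted p = 5.59e-06 by limma). ID3 was at 2596, 3036 and 3597 in si-CTRL and at 10151, 9140 and 6964 in si-NEK2 replicates 1, 2 and 3 (log2 fold change 1.503, adjusted p = 0.00013 by limma). ID2 was at 325, 402 and 398 in si-CTRL and at 966, 968 and 857 in si-NEK2 replicates 1, 2 and 3 (log2 fold change 1.31, adjusted p = 5.34e-05 by limma). In none of these 3 genes did the groups overlap, as was so in 55% of all genes tested. For ID1 and ID3, si-NEK2 replicate 3 was the lowest of its group and si-CTRL replicate 3 the highest of its own. The E proteins that ID proteins bind, TCF3, TCF4 and TCF12, had log2 fold changes of -0.13, -0.29 and 0.03, none past the thresholds.

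The markers were ordered by their level per kb of exon, since counts of genes of different length do not compare. In si-CTRL cells CD44 had the highest level, 5409 ± 1292 normalized counts per kb (SD, n = 3), followed by SOX9 at 3380 ± 261 and ALDH1A3 at 2875 ± 432, whose libraries overlapped. ID1 (1635 ± 358) and PROCR (1560 ± 278) came next and overlapped, as did CD24 (553 ± 55.3, with the length of the chromosome 6 gene) and SOX4 (512 ± 41.8), before KLF4 (362 ± 68), EPCAM (0.967) and ALDH1A1 (0). In si-NEK2 cells SOX9 was first with 3605 ± 195 normalized counts per kb, above CD44 with 3145 ± 210. ID1 (2680 ± 652), whose libraries overlapped those of CD44, came next and then ALDH1A3 (1575 ± 56.6). PROCR, at 711 ± 36.6, was level with SOX4, at 704 ± 39.7, with overlapping libraries, above CD24 (375 ± 5.11) and KLF4 (252). By this measure SOX9 changed places with CD44, ID1 with ALDH1A3, and SOX4 with CD24, which it had overlapped in si-CTRL libraries. The length used is the union of all annotated exons, 10004 bases for CD44, 5772 for ALDH1A3 and 3935 for SOX9. A single transcript can be shorter than this union, so that the order may depend on the length chosen.

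**Figure D3:**
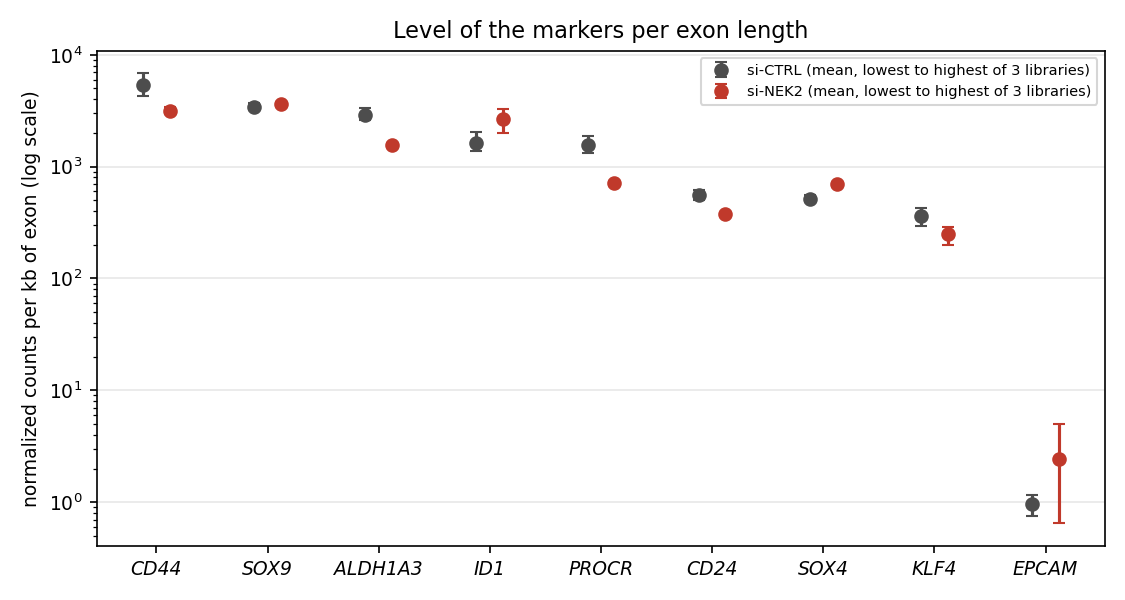
Level of the markers in normalized counts per kb of exon on a log axis, with the mean of the 3 libraries of si-CTRL (grey) and si-NEK2 (red) cells and bars from the lowest to the highest library. CD44, SOX9 and ALDH1A3 lead in si-CTRL cells, SOX9, CD44 and ID1 in si-NEK2 cells. ALDH1A1 is at 0 and cannot be drawn on this axis.

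The spread between libraries was not the same in both groups. In si-CTRL cells the coefficient of variation was 23.9% for CD44, 21.9% for ID1, 18.8% for KLF4, 17.8% for PROCR and 15% for ALDH1A3, and between 7.71% and 10% for SOX9, SOX4 and CD24. In si-NEK2 cells it was 24.3% for ID1 and 19% for KLF4, and between 1.36% and 6.68% for the other tested markers. Counting error in the library with fewest reads on the gene was at most 3.83%, for KLF4, and 0.562% for CD44. The spread of the control libraries exceeded it in every tested marker. In si-NEK2 cells the spread of CD24, 1.36%, was smaller than its counting error of 3.02%, so that this closeness may be accidental. For CD44, ALDH1A3, PROCR, SOX9 and KLF4 the highest control value was that of si-CTRL replicate 1, and for CD24, SOX4 and ID1 this library was the lowest control. It is also the library with fewest reads in all, and the part of depth in this was not tested.

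Further stem cell markers and lineage markers, 163 genes with the families above, were set beside the panel. Of 110 distinct genes tested on rows of their own, 25 passed as higher and 23 as lower, 43.6% in all, with a median log2 fold change of -0.07. With equal total scaling 16 passed as higher and 30 as lower. Of 9 other stem cell markers tested, 1 passed as higher and 4 as lower. THY1, a surface marker of mesenchymal cells, fell from 4544 ± 373 to 2643 ± 93.4 (-0.78), DCLK1 from 215 ± 10.3 to 109 ± 0.981 (-0.98), and the filament protein NES from 54.5 ± 11.5 to 31 ± 7.95 (-0.81). Without si-CTRL replicate 1, 2 in place of 4 of these markers passed as lower. The pluripotency factors NANOG and POU5F1 had means of 4.43 or less in both groups and were not tested.

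The luminal list had 10 tested genes, of which 1 passed as higher and 0 as lower. This gene was FOXA1, a pioneer factor of luminal cells, at 841, 786 and 851 normalized counts in si-CTRL and at 1921, 1946 and 1687 in si-NEK2 replicates 1, 2 and 3 (log2 fold change 1.16, standard error 0.09, adjusted p = 2.69e-05 by limma). Without si-CTRL replicate 1, 3 luminal genes passed, and without si-NEK2 replicate 3, 2 did. The median of the list was 0.32.

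The basal and myoepithelial list had 13 tested genes, of which 4 passed as higher and 5 as lower, with a median of -0.52. With equal total scaling the numbers were 3 and 7. The genes with the largest changes went both ways. MYLK, the myosin light chain kinase of smooth muscle, was at 1269, 1676 and 1388 normalized counts in si-CTRL and at 363, 325 and 364 in si-NEK2 replicates 1, 2 and 3 (log2 fold change -2.03, adjusted p = 8.4e-06 by limma). CNN1, calponin, was at 37.7 ± 13 and 12.9 ± 7.53 (-1.63, adjusted p = 0.0291 by limma). Of the genes that passed as higher, the keratins KRT17 and KRT14 were at low levels, KRT17 rising from 32.2 ± 7.69 to 108 ± 12 (1.74) and KRT14 from 12.3 ± 1.99 to 38.7 ± 7.9 (1.57). KRT5 and TP63 had means under 10 and were not tested. Among 4 tested markers of other cell types, endothelial CDH5 passed as lower, from 30.5 ± 11 to 13.7 ± 2.96 (-1.06, adjusted p = 0.0316 by limma), at few reads per library, and 2 of the 4 passed as lower without si-NEK2 replicate 3.

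**Figure D4:**
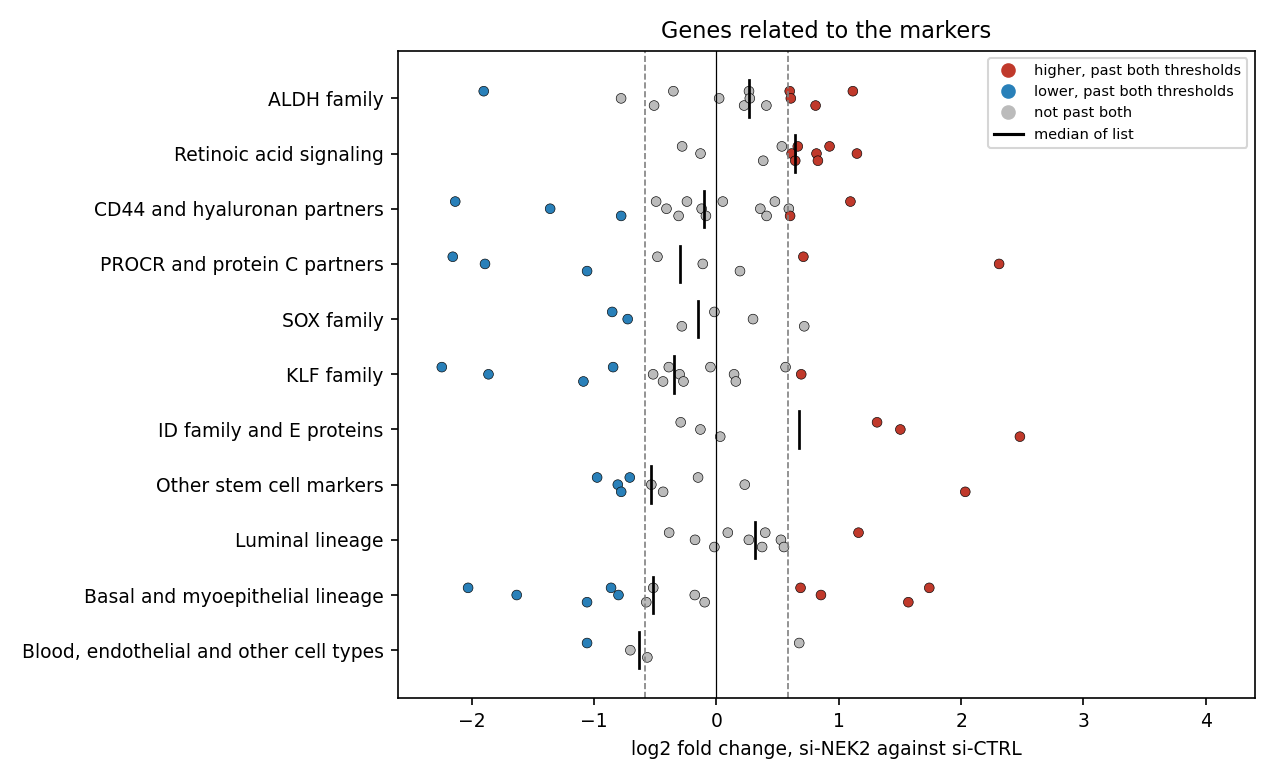
Log2 fold change, si-NEK2 against si-CTRL, of the tested genes of 11 related lists, with the panel itself left out. Each point is a gene, red where it passed both thresholds as higher, blue where it passed as lower and grey otherwise, the black bar is the median of the list, and the dashed lines stand at a fold change of 1.5. The retinoic acid and ID lists have no gene that passed as lower, whereas the protein C and basal lists have genes far out on both sides. The gene furthest to the right in the protein C list is PROC, whose si-CTRL mean was below 10 normalized counts.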

How the data were processed

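The sample records and methods describe polyA RNA from MDA-MB-231 cells, stranded mRNA libraries and single-end sequencing, whereas the results text of the study calls the sequencing paired-end. The submitters' processing notes name STAR 2.4.0, SAMtools, Picard, FastQC and DESeq2. The authors deposited a signal per gene and library, its reads over the library's DESeq2 size factor. Genes follow FAST DB, with hg19 coordinates. Replicates were not pooled, and the counter and its strand setting are not given in the sources used here. The deposited values were whole multiples of 1 read, within 0.01 reads, in 100% of cases, which gave back between 52625492 and 87454509 reads per library. All 6 columns were mapped to samples by the names in the sample records.

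Testing was limited to the 18717 of 74852 genes whose mean reached 10 normalized counts, and was done with limma 3.58.1 in R 4.3.3, by lmFit and eBayes with an intensity trend, on log2(value + 1), which shrinks fold changes at low counts. The thresholds were a p-value no higher than 0.05 with at least a 1.5-fold difference. P-values were adjusted over all tested genes (Benjamini-Hochberg). No set test was run. A row shared by several genes was left out of the lists (5 genes). Alternatives used another pseudocount (0.1, 5), another filter (none, or a mean of 50), another scaling (equal total, upper quartile, quantile), no trend in eBayes, a block for the replicate number, 5 of the 6 libraries, edgeR 4.0.16 or DESeq2 1.42.0 with the recovered reads, the adjusted p as threshold, and a 2-fold threshold. The ratio of CD44 to CD24 was compared by an exact permutation test. The scripts were tested on simulated data. Exon lengths are unions of GENCODE exons on GRCh38, and promoters come from RefSeq tables of GRCh38.p14, which matched 8 of the 10 markers. The text names the markers, NEK2, and up to 4 genes per list with the largest change among those past both thresholds and an adjusted p of 0.05, with genes at 0 or filtered that bear on the cell type. The values of 1 gene that this rule names are not reported here. The markers and lists were chosen with earlier results of these data known. TCF3, TCF4, TCF12, F2RL1, ADAM10, MSN, EZR and the overlapping genes were named after their values were seen.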

Additional observations from a re-analysis of the deposited data

How the results depend on the processing

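Under every alternative at a 1.5-fold threshold PROCR and ALDH1A3 passed as lower and SOX4 stayed higher under 1.5-fold. SOX9 turned sign with equal total scaling (-0.0338) and quantile normalization (-0.0434). The median log2 fold change of all genes was -0.11 with equal total, -0.05 with upper quartile and 0.05 with quantile scaling, against 0.01. Of the markers, 6 passed with upper quartile scaling (CD24 and KLF4 besides the others) and 5 with equal total scaling (with CD24 and KLF4, without ID1). With each library left out, 4 or 5 passed: CD24 in place of CD44 without si-CTRL replicate 1, KLF4 as well without si-CTRL replicate 2, and KLF4 in place of ID1 without si-NEK2 replicate 1. With a fold change of at least 2, 1 marker (PROCR) passed instead of 4, and over the related lists 24 genes passed instead of 48, by construction. edgeR and DESeq2 on the recovered reads called the same 4 markers. DESeq2 gave no adjusted p for 5 genes. The CD44 to CD24 log2 ratio differed by between -0.429 and 0.0417 with each library left out, with the sign turned without si-CTRL replicate 1.

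The replicate numbers did not pair the libraries, since deviations from the group means of same-numbered libraries correlated at -0.09, 0.05 and -0.15. With the replicate block, 4 markers and 48 genes of the related lists passed, the ratio differed by -0.20 (exact sign-flip p = 0.75), and the adjusted p of ID1 was 0.0529 in limma. Few reads limit EPCAM, ALDH1A1, ALDH1L1, PROC, KLF15, KRT14, CNN1 and CDH5. With 3 libraries per group, no group was tested for single deviating libraries. No batch is described in the sources used here.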
